A study of Mus musculus with 6 samples.

Results

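The genes described here encode laminin chains (Lama1, Lama5, Lamb1, Lamb2, Lamc1), the nidogens (Nid1, Nid2) and the basement membrane proteoglycans perlecan (Hspg2) and agrin (Agrn). They were chosen by gene symbol, and all probes with these symbols on the array were read. Of the 9 genes, 8 had a probe, with 1 probe each, among the 25697 probes of the array. No probe carried the symbol Lama5, so Lama5 was not analysed here. All 8 probes passed the filter on dim probes, which left 12373 probes and 8605 genes.

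The samples were cultured mouse embryonic stem cells, read on 6 Illumina bead arrays that shared 1 chip. The groups were 2 independently derived Sox17-inducible lines with doxycycline (Sox17_dox, n = 2), the same lines left untreated (Sox17_untreated, n = 2), the control line KH2 with doxycycline (KH2_dox, n = 1) and KH2 without it (KH2_untreated, n = 1). Sox17 is a transcription factor of extraembryonic and definitive endoderm, and doxycycline is the drug that switches the inducible gene on. Per the labels, the medium held serum and LIF, no feeder layer was used, and doxycycline was given at 1 µg/mL over a culture of 5 days. The promoter of the transgene, its site and whether a line is 1 clone are not given in the sources used here, and the protocol text names only the inducible cells. The line whose label carries no number is called line 1. Each line gave 1 culture per condition, so p-values measure only the spread between the 2 inducible lines, and the KH2 arrays had no replicate.

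Laminins are trimers of an α, a β and a γ chain that polymerise on the cell surface into the first layer of a basement membrane. Nidogens bind both laminin and type IV collagen, and the heparan sulfate proteoglycans perlecan and agrin bind laminin and, through their sugar chains, growth factors. In the early mouse embryo the trimer of the Lama1, Lamb1 and Lamc1 products is the main laminin. Primitive endoderm and the parietal endoderm derived from it are known as strong producers of it.

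Between 11219 and 11957 probes were detected per array, with a detection p under 0.05 against the negative controls. Median raw signals were 109 to 129 intensity units, and a probe was read by a median of 38 to 40 beads. Sox17 itself has 2 probes. Only the brighter of them was detected, and only on the induced array of line 2, so these probes do not check the labels. All 8 genes of a list of embryonic stem cell markers were detected on every array. Their summed normalised signal was 38466 and 36810 in Sox17_dox, 34124 and 32268 in Sox17_untreated, 28170 in KH2_dox and 27508 in KH2_untreated. The sum is on the linear scale, so the brightest genes, Esrrb and Pou5f1, weigh most. These 2 were higher with doxycycline in both inducible lines, and Nanog and Sox2 were lower in both. The median change of the 8 was -0.007 (log2). Their mean log2 level was 10.95 and 10.82 in Sox17_dox, and 10.99 and 10.73 in Sox17_untreated. Of the 9 primitive and parietal endoderm markers with a probe, 4 and 7 were detected on the Sox17_dox arrays, 3 and 4 on the Sox17_untreated arrays, and 3 on each KH2 array. The summed normalised signal of those markers was 1008 and 1724 in Sox17_dox, 656 and 740 in Sox17_untreated, 760 in KH2_dox and 688 in KH2_untreated. Of the 5 of these markers that were tested, 3 (Gata6, Pdgfra and Thbd) were higher with doxycycline in both inducible lines. Gata4 and Dab2 read -0.20 and -0.07 in line 1 and 0.46 and 0.72 in line 2 (log2 change), and Foxa2 and Plat were detected on no array. Of the 3, Gata6, a regulator of primitive endoderm, read 8.43 and 9.71 in Sox17_dox, against 6.25 and 7.77 in Sox17_untreated. Gata6 was the brightest of these markers on both Sox17_dox arrays, so it weighs most in their summed signal. That sum was higher in Sox17_dox, as most of the genes described below were, and the part of these markers in the results was not tested. In such bulk samples, a change in the number of cells of a type and a change in RNA per cell cannot be told apart.

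For a view of the DNA next to these genes, the 250 bases upstream of the annotated start were taken from RefSeq promoter entries (GRCm38.p6), which 6 of the 9 genes matched. Shown are those of the 5 matched genes that had a probe, 4 with a higher signal in both induced lines and Lamb2, which did not have it. Lama1, Lamc1 and Nid2, which were also higher in both lines, had no matching entry. They run 5′ to 3′ towards the gene, and capitals mark the letters GGGCGG (the GC box bound by Sp and Klf factors) and CCAAT on either strand. For Agrn the window of the first of its 2 entries is given.
Nid1, chr13:13437352-13437601, plus strand: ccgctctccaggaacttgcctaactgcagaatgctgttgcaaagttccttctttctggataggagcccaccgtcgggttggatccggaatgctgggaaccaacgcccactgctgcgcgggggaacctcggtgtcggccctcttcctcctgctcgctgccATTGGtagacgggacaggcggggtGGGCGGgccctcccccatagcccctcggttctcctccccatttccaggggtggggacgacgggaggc
Lamb1, chr12:31265043-31265292, plus strand: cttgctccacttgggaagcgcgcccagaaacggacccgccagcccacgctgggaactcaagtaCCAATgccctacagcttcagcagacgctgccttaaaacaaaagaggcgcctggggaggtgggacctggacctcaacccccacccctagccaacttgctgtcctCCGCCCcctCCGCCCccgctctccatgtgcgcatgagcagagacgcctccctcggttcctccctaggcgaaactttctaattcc
Hspg2, chr4:137468553-137468802, plus strand: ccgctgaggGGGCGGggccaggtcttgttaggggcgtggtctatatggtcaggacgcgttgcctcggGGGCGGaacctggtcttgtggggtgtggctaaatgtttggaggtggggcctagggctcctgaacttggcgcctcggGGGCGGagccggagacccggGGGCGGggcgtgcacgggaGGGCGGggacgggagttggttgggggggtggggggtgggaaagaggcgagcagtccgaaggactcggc
Agrn, chr4:156197489-156197738, minus strand: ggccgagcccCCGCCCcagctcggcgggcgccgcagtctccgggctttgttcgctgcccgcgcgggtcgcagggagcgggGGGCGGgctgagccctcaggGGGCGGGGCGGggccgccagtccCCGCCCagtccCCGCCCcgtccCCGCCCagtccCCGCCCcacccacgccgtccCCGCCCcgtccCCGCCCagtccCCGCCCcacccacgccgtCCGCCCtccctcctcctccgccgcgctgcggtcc
Lamb2, chr9:108479612-108479861, plus strand: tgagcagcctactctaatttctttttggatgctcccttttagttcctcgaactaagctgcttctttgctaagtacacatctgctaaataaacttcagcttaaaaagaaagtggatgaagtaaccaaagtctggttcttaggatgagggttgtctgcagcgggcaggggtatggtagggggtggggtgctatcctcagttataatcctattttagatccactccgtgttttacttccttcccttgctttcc
The letters ACAAT, the core of the SOX motif, were not present on either strand of any of the 7 windows of these genes. The GATA motif, searched for as AGATAA, was not present in any of them. Of the 32851 windows of all promoters, 27.7% held ACAAT and 9.99% held AGATAA. The other motifs, GGGCGG and CCAAT, were searched for after the sequences had been seen. GGGCGG was found 1 time in the Nid1 window, 2 times for Lamb1, 5 times for Hspg2, 12 times for Agrn (neighbouring matches can overlap) and 0 times for Lamb2, and it was present in 32.7% of all windows. CCAAT was found 1 time each for Nid1 and Lamb1 and was present in 33.9% of all windows. The GC content was 64.4% for Nid1, 62.0% for Lamb1, 70.0% for Hspg2, 83.6% for Agrn and 43.6% for Lamb2, against a median of 52.4% over all windows. These matches describe the letters only, and nothing about binding was measured. Lamb2 is the only gene shown that was not higher in both lines, so a relation of letters to change was not tested.

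Lama1 encodes the α1 chain, which carries the main receptor-binding end of the embryonic laminin. Its probe read 11.22 in Sox17_dox of line 1 and 11.78 in Sox17_dox of line 2, against 9.34 and 11.41 in Sox17_untreated of line 1 and line 2, on the log2 scale of normalised signal used for all levels here. KH2 read 9.70 with doxycycline and 9.59 without it. Untreated line 2 was thus already above induced line 1, and the Sox17_dox and Sox17_untreated groups overlapped, while all 3 of those higher arrays stood well above KH2. Line 1 differed by 1.88 (3.69-fold) between doxycycline and no doxycycline, line 2 by 0.37 (1.29-fold) and KH2 by 0.11 (1.08-fold). In line 1 this placed Lama1 at rank 11 of 8605 genes from the highest, and in line 2 at rank 1008. On raw signal, which has a standard error over beads, line 1 differed by 1.85 ± 0.07, line 2 by 0.39 ± 0.09 and KH2 by 0.07 ± 0.09 (log2, bead SE, which covers only the reading of 1 array against 1).

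The level of Lama1 before induction set the inducible lines apart. Untreated line 2 read 2.08 above untreated line 1 (4.22-fold), and with doxycycline line 2 read 0.56 above line 1. Against untreated KH2, untreated line 2 was 1.82 higher and untreated line 1 differed by -0.25. Gata6 had a like order, at 7.77 in untreated line 2, 6.25 in untreated line 1 and 6.29 in untreated KH2. The difference between the changes of the lines, 1.52 for Lama1, rests on 1 array per condition and was not tested.

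Lamb1 and Lamb2 encode the β1 and β2 chains, of which β1 pairs with α1 in the embryo and β2 is known from the kidney filter and the neuromuscular junction. Lamb1 was dim. It read 6.32 and 6.68 in Sox17_dox of line 1 and line 2, against 5.44 and 6.10 in Sox17_untreated, and 6.66 in KH2_dox against 6.10 in KH2_untreated. It was detected on 5 arrays, all but untreated line 1, so the lowest of these levels is at background. The induced arrays were above both untreated arrays of the same lines, but KH2_dox stood as high as they did. The differences were 0.88 in line 1, 0.58 in line 2 and 0.56 in KH2, at ranks 201, 336 and 584 of 8605 genes. Without background correction they were 0.41, 0.30 and 0.29. Lamb2 read 7.28 and 7.37 in Sox17_dox, against 7.30 and 7.10 in Sox17_untreated, and 7.47 in KH2_dox against 7.43 in KH2_untreated. Its differences of -0.02, 0.27 and 0.04 were small, and those of line 1 and KH2 changed sign in the authors' normalised values (0.01 and -0.05) and with median scaling (0.06 and -0.08).

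Lamc1 encodes the γ1 chain, which is shared by most laminin trimers. It read 10.95 and 10.94 in Sox17_dox of line 1 and line 2, against 10.48 and 9.96 in Sox17_untreated, and 10.05 in KH2_dox against 10.14 in KH2_untreated. Both induced arrays lay above all 4 others and differed from each other by -0.01 (line 2 minus line 1), while without doxycycline that difference was -0.51. The differences were 0.47 (1.39-fold) in line 1, 0.97 (1.96-fold) in line 2 and -0.09 in KH2. In line 2 that placed Lamc1 at rank 40 of 8605 genes, and in line 1 at rank 869. Lama1 thus had its larger difference in line 1 and Lamc1 in line 2. On raw signal the Lamc1 differences were 0.58 ± 0.08, 0.97 ± 0.10 and -0.08 ± 0.08 in line 1, line 2 and KH2 (bead SE).

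**Figure D1:**
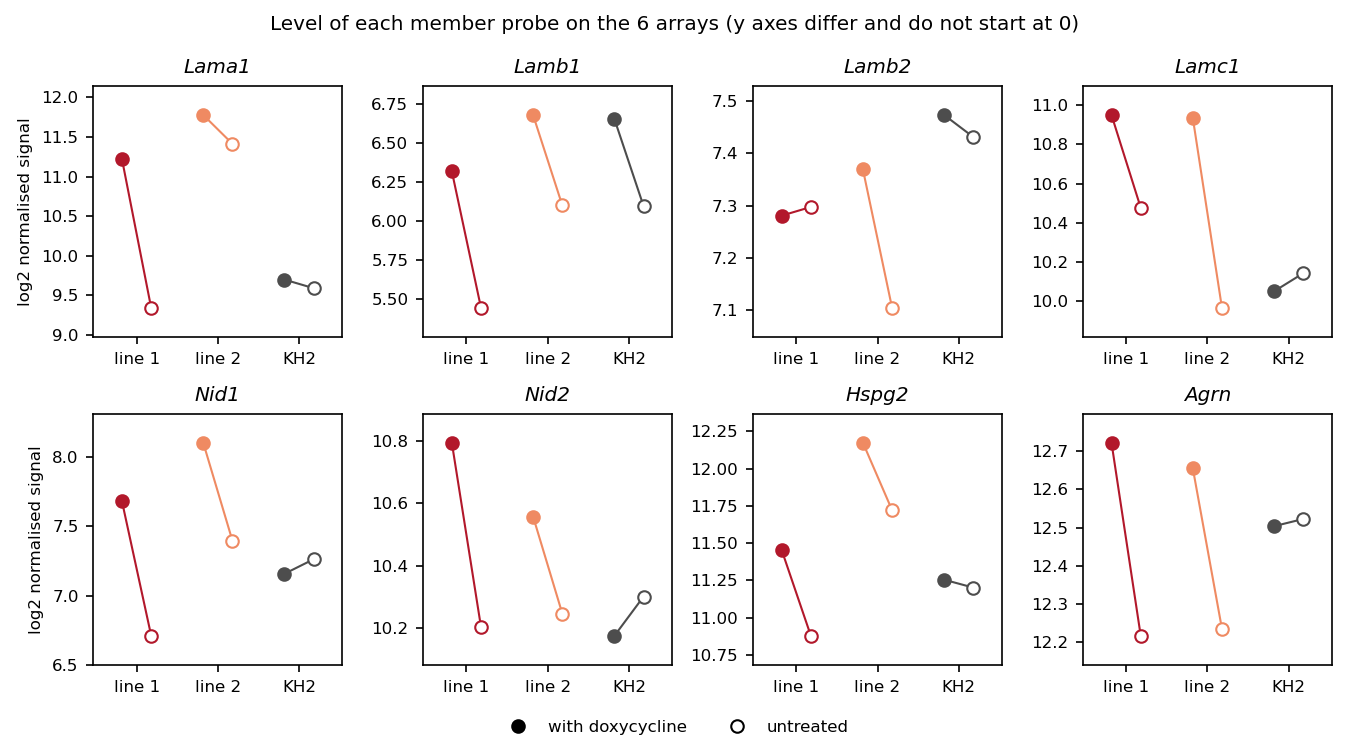
Log2 normalised signal of the 8 laminin, nidogen and proteoglycan probes (y axes, a range of its own for each gene) in line 1, line 2 and KH2, with 1 array per point. Filled points are arrays with doxycycline, open points untreated arrays of the same line, and Lama1 shows untreated line 2 (11.41) above induced line 1 (11.22).

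The nidogen genes differed in brightness but had the same direction. Nid1 read 7.68 and 8.11 in Sox17_dox of line 1 and line 2, against 6.71 and 7.40 in Sox17_untreated, and 7.16 in KH2_dox against 7.26 in KH2_untreated. Both induced arrays were above the 4 others. The Nid1 differences were 0.97 (1.96-fold) in line 1, 0.71 (1.64-fold) in line 2 and -0.11 in KH2, at ranks 143 and 150 of 8605 genes in line 1 and line 2. Without background correction its differences were 0.63 in line 1 and 0.52 in line 2.

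Nid2 read 10.79 and 10.56 in Sox17_dox, against 10.20 and 10.25 in Sox17_untreated, and 10.18 in KH2_dox against 10.30 in KH2_untreated. The 4 arrays without induced Sox17 spanned little, and both induced arrays were above them. The differences were 0.59 (1.51-fold) in line 1, 0.31 (1.24-fold) in line 2 and -0.13 in KH2.

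Hspg2 encodes perlecan, a large heparan sulfate proteoglycan. It read 11.45 and 12.17 in Sox17_dox of line 1 and line 2, against 10.88 and 11.72 in Sox17_untreated, and 11.25 in KH2_dox against 11.20 in KH2_untreated. As for Lama1, untreated line 2 was above induced line 1. Untreated line 2 stood 0.84 above untreated line 1, which is more than the difference with doxycycline in line 1 (0.58) or in line 2 (0.45). In KH2 that difference was 0.05.

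Agrn encodes agrin, a heparan sulfate proteoglycan that binds laminin and dystroglycan and is best known for clustering acetylcholine receptors at the neuromuscular junction. It read 12.72 and 12.66 in Sox17_dox, against 12.22 and 12.23 in Sox17_untreated, and 12.50 in KH2_dox against 12.52 in KH2_untreated. The untreated inducible lines stood 0.31 and 0.29 below untreated KH2, and the induced lines stood slightly above both KH2 arrays. The differences were 0.51 in line 1 and 0.42 in line 2. In KH2 the difference was -0.02, which turned to 0.06 in the authors' normalised values and 0.11 with median scaling.

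**Figure D2:**
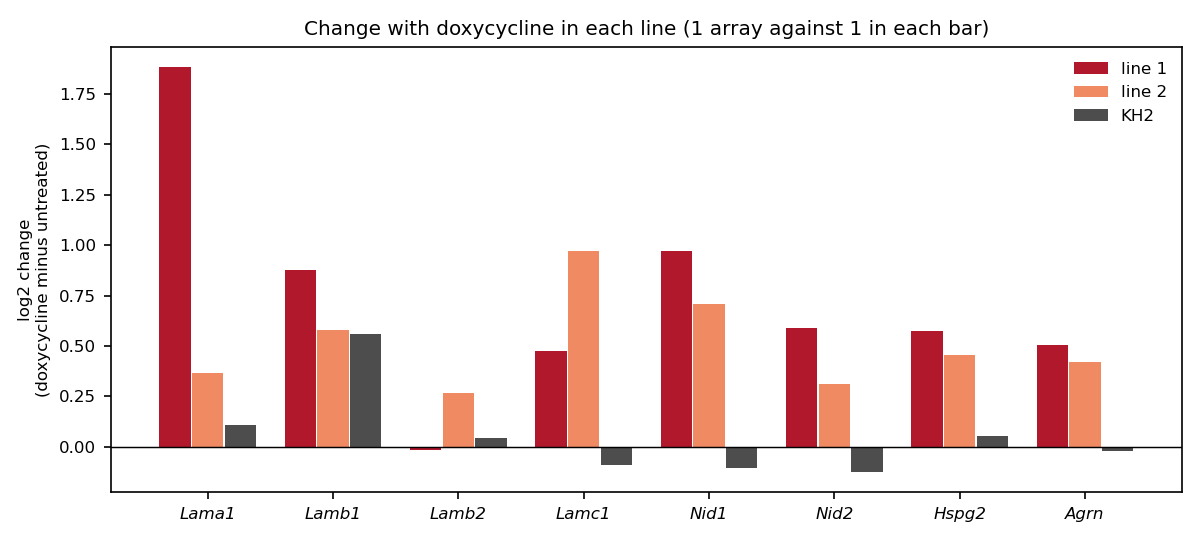
Log2 change with doxycycline (y axis, doxycycline minus untreated) for each of the 8 genes in line 1, line 2 and KH2, with each bar 1 array against 1 and no error bar. Lama1 in line 1 (1.88) is the tallest bar, Lamb1 is the gene with a KH2 bar (0.56) near that of line 2 (0.58), and Lamb2 stays within 0.27.

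Counted over the genes with a probe, 7 of 8 read higher with doxycycline in line 1 and 8 of 8 in line 2, against 4 of 8 in KH2. Over all 8605 genes those shares were 48.6%, 49.3% and 52%. In both inducible lines 7 of 8 were higher (all but Lamb2), against 29.3% of all genes. Those 7 were also higher in both lines by more than in KH2, which held for 16.9% of all genes. For Lamb1 the margin was small, with 0.58 in line 2 against 0.56 in KH2. On raw signal these were 0.40 ± 0.13 and 0.29 ± 0.12 (log2, bead SE). A difference of at least 2-fold was reached by Lama1 in line 1 (1 of 8, with 1.56% of all genes), by 0 of 8 in line 2 (0.407%) and by 0 of 8 in KH2 (0.488%). Both Sox17_dox arrays were above both Sox17_untreated arrays for 5 of 8 (Lamb1, Lamc1, Nid1, Nid2 and Agrn), against 15.9% of all genes. They were above all 4 other arrays for 4 of 8 (Lamc1, Nid1, Nid2 and Agrn), against 8.33%. The genes were chosen with earlier results of these arrays known, so these counts describe them and are no test.

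The first comparison asked whether the induced lines differed from the same lines without doxycycline. The mean differences of all 8 genes were above 0, with a median of 0.62 against -0.01 over all genes. They were 1.12 ± 0.63 for Lama1 (SE, n = 2 against 2), 0.84 ± 0.30 for Nid1, 0.73 ± 0.28 for Lamb1, 0.72 ± 0.24 for Lamc1, 0.52 ± 0.36 for Hspg2, 0.46 ± 0.19 for Agrn, 0.45 ± 0.20 for Nid2 and 0.12 ± 0.20 for Lamb2. None of them passed the test. The limma adjusted p was 0.955 for 7 of the genes and 0.974 for Lamb2, and with its threshold of 0.05 limma called 0 of 12373 probes (0%), with trend and robust moderation too. The lowest adjusted p of any probe was 0.955. At an unadjusted p under 0.05, 4 of 8 were counted (Lamc1, Nid1, Lamb1 and Agrn), against 4.27% of all probes. Lama1 had the widest error of the 8, and its untreated arrays differed by 2.08. This fit of group means does not pair the arrays of a line. Leaving out 1 untreated array thus brings in the difference between the untreated lines, 2.08 for Lama1 and 0.84 for Hspg2. Without untreated line 1 the Lama1 difference was 0.09, and without untreated line 2 it was 2.16, with 0.09 and 0.94 for Hspg2. Within line 1 and line 2 the differences were 1.88 and 0.37 for Lama1, and 0.58 and 0.45 for Hspg2. Without untreated line 1 the difference was 0.50 for Nid1 and 0.40 for Lamb1, and without untreated line 2 it was 0.47 for Lamc1 and 0.028 for Lamb2. With the line as a replicate block, limma called 1 probe, that of Gata6 (0.00808% of the probes), and none of these genes (lowest adjusted p 0.169, for Nid1). That fit compares within lines and has 1 residual degree of freedom. Its SE was 0.32 for Lama1, 0.19 for Lamc1 and 0.17 for each of the others, with the same differences. In that fit 7 of 8, all but Lamb2, had an unadjusted p under 0.05, against 13.6% of all probes.

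A further comparison was between the induced lines and doxycycline-treated KH2, which includes any difference between the lines before induction. Both Sox17_dox arrays were above the KH2_dox array for 6 of 8 genes, against 36.7% of all genes. Lama1 averaged 11.50 ± 0.40 in Sox17_dox (SD, n = 2) and read 9.70 in KH2_dox, a difference of 1.80 ± 0.77 (SE). The differences were 0.89 ± 0.29 for Lamc1, 0.74 ± 0.36 for Nid1, 0.56 ± 0.45 for Hspg2, 0.50 ± 0.25 for Nid2 and 0.19 ± 0.23 for Agrn. Lamb1 and Lamb2 read lower in Sox17_dox than in KH2_dox, by -0.16 ± 0.35 and -0.15 ± 0.24. The sign for Lamb1 turned without induced line 1 (0.02), and that for Agrn turned with median scaling (-0.02). For Hspg2 the difference was 0.20 without induced line 2 and 0.92 without induced line 1. limma called 0 of 12373 probes (0%), also with trend and robust moderation, and the lowest adjusted p among these genes was 0.429, for Lamc1. Lamc1 was also the only 1 of the 8 with an unadjusted p under 0.05, against 11.1% of all probes.

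The last comparison asked whether the change with doxycycline in the inducible lines differed from that in KH2, the line that is labelled as the control. The difference of changes was 1.02 ± 1.09 (SE) for Lama1, 0.95 ± 0.51 for Nid1, 0.82 ± 0.41 for Lamc1, 0.58 ± 0.35 for Nid2, 0.48 ± 0.33 for Agrn and 0.46 ± 0.63 for Hspg2. It was 0.17 ± 0.49 for Lamb1 and 0.08 ± 0.34 for Lamb2. The median was 0.53, against 0.01 over all genes. limma called 0 of 12373 probes (0%), also with trend and robust moderation and with the line as a block, and all 8 genes had an adjusted p of 0.996 (without the block). An unadjusted p under 0.05 was reached by 0 of the 8 genes and by 2.78% of all probes, and with the line as a block by 2 of the 8 (Lamc1 and Nid1) and by 10.2% of all probes. The fit without the block does not pair the arrays of a line here either. Without untreated line 1 the sign turned for Lama1 (-0.02) and Lamb1 (-0.16), and the value was 0.60 for Nid1 and 0.041 for Hspg2. Without induced line 2 it was 0.10 for Hspg2, and without untreated line 2 the value was 0.88 for Hspg2 and -0.015 for Lamb2.

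**Figure D3:**
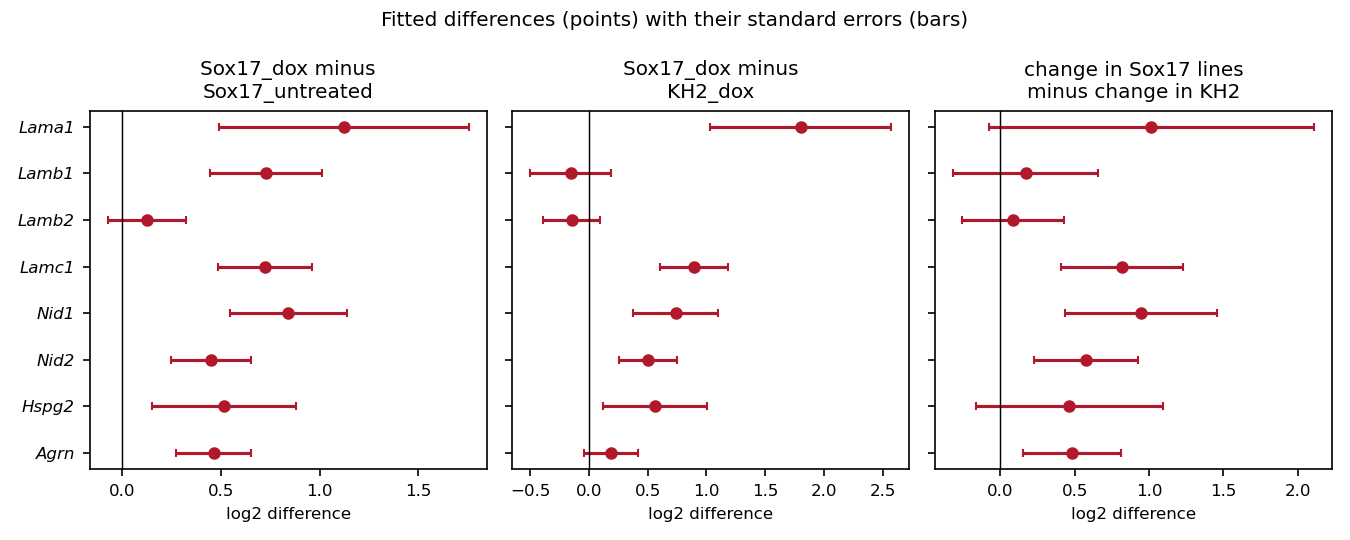
Fitted log2 differences (x axes) of the 8 genes in the 3 comparisons, as points with bars of 1 standard error. The fits are of group means and do not pair the arrays of a line. Lama1 has the widest bars in each panel (1.12 ± 0.63 in the first), and Lamb1 and Lamb2 lie left of 0 in the comparison with KH2_dox.

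Other genes of the same matrix and of its receptors were read from lists by their brightest tested probe. None of the genes in these lists passed the limma test of the first comparison. Of all 8605 genes, 2522 (29.3%) were higher and 2690 lower with doxycycline in both inducible lines. Of the other laminin and netrin chains, 4 of 9 were tested, and 1 was higher and 1 lower in both inducible lines (median -0.08). The higher one was Ntn3, a laminin-related netrin, with 0.34 and 0.29 in line 1 and line 2. Lama4, a chain known from vessels, was the lower one, with levels of 5.19 and 5.14 in Sox17_dox against 5.71 and 5.80 in Sox17_untreated. It was not above background on either Sox17_dox array, so it was at least 1.04-fold lower, taking the lowest detected signal of those arrays as the limit. Lamb3, a chain of skin laminin, read -0.06 and 0.12, and was not above background on the induced array of line 1.

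Of 21 other basement membrane components, 10 were tested, of which 6 were higher and 1 lower in both lines (median 0.15). Col4a1, which encodes a chain of the main type IV collagen, read 1.66 and 0.95 in line 1 and line 2 against 0.07 in KH2. The elastic fibre and basement membrane protein gene Fbln2 read 1.41 and 1.16, against 0.02 in KH2. Smoc1, which encodes a calcium-binding matrix protein, was lower, with -0.34 and -0.65. Of 10 laminin receptor genes 8 were tested, and 4 were higher and 0 lower in both lines, with a median of -0.01 in line 1 and 0.52 in line 2. Dag1, which encodes dystroglycan, the shared receptor of laminin, perlecan and agrin, read 0.36 and 0.52, against -0.12 in KH2. Bcam, a receptor of the laminin α5 chain, read -0.05 and 1.00, against 0.76 in KH2, and Lrp4, the agrin receptor of muscle, -0.42 and 0.10.

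Genes for enzymes that modify these proteins were read next. Of 13 genes for dystroglycan glycosylation 9 were tested, with 3 higher and 2 lower in both lines (median 0.03). The mannosyltransferase gene Pomt2 read 0.85 and 0.24, and 0.41 in KH2, Pomgnt2 read 0.26 and 0.14, and B3galnt2 0.31 and -0.88. B3galnt2 was detected on 2 arrays, induced line 1 and untreated line 2, so each of its differences is against a level not above background. Of 19 genes for heparan sulfate synthesis and editing 13 were tested, with 6 higher and 2 lower (median 0.18). The sulfotransferase gene Hs3st1 read 0.54 and 0.76, and 0.35 in KH2, the chain polymerase gene Ext2 0.65 and 0.23, and the xylosyltransferase gene Xylt2 -0.08 and -0.18. Of 12 other heparan sulfate proteoglycan genes, cell surface ones for the most part, 9 were tested, with 4 higher and 2 lower (median 0.16). The glypican gene Gpc4 read 1.26 and 0.47 against 0.73 in KH2, and the syndecan genes Sdc3 and Sdc1 read 0.65 and 0.90 against 0.64 in KH2, and -0.26 and -0.64 against -0.50 in KH2. Gpc4 was not above background on the untreated array of line 1, so its difference in that line is against a level at background. Each of these 3 genes differed in KH2 in the same direction as in the inducible lines.

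**Figure D4:**
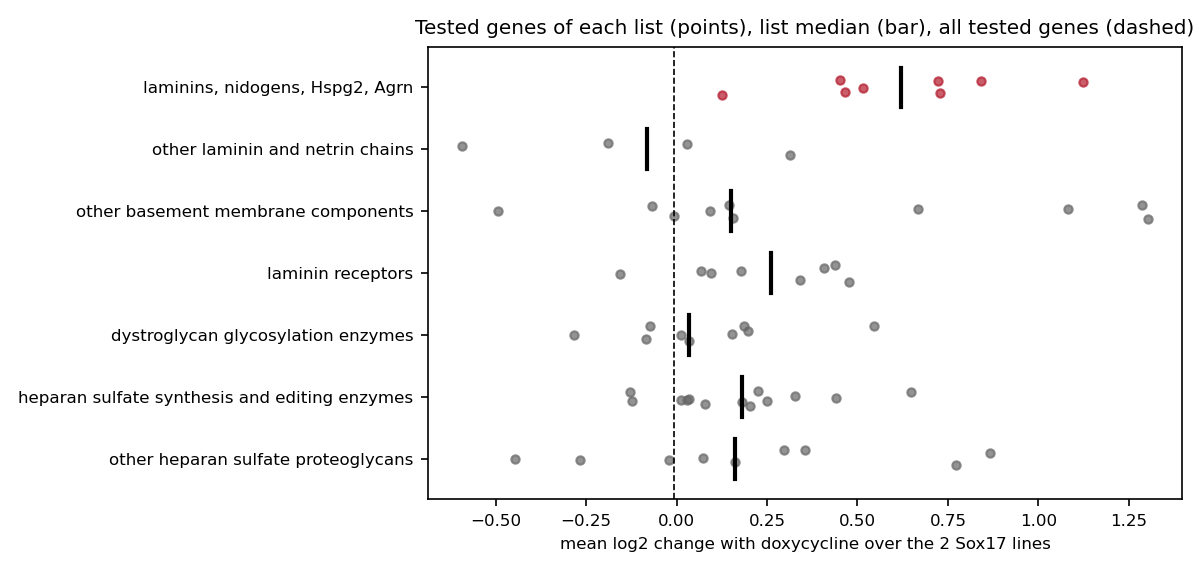
Mean log2 change with doxycycline over the 2 inducible lines (x axis) of each tested gene (points) in the laminin, nidogen and proteoglycan set and in 6 related lists, with the list median as a bar and the median of all tested genes (-0.01) dashed. The median is 0.62 for the set in the top row and between -0.08 and 0.26 for the lists below it.

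The mean of the 8 centred levels was 0.28 and 0.51 in Sox17_dox of line 1 and line 2, -0.45 and 0.00 in Sox17_untreated, -0.15 in KH2_dox and -0.20 in KH2_untreated. Of 3030 other genes whose SD over the arrays was at least 0.3, those most like this pattern were Cd59a, a complement inhibitor (Pearson r = 0.997 over 6 arrays), Mib2, a ubiquitin ligase (0.988), Grn, the progranulin gene (0.978), Otud7a, a deubiquitinase gene (0.975), and Kdm6b, a histone demethylase (0.975). Cd59a read 8.98 and 9.25 in Sox17_dox, 7.94 and 8.62 in Sox17_untreated, 8.34 in KH2_dox and 8.23 in KH2_untreated. These correlations describe 6 arrays that share 3 lines, and the genes were picked as the highest of many.

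Markers of other cell types were read beside these results. Of 8 fibroblast and feeder cell markers, 2 were detected on each array except untreated line 1, with 1. Col1a2, Col3a1, Lum, Dcn, Postn and Pdgfrb were detected on none. Their summed normalised signal was 338 and 424 in Sox17_dox, 362 and 366 in Sox17_untreated, 390 in KH2_dox and 401 in KH2_untreated. Of 7 endothelial markers 3 were detected on every array, with sums of 744 and 559 in Sox17_dox, 592 and 584 in Sox17_untreated, 477 in KH2_dox and 515 in KH2_untreated. Of 8 trophoblast markers 4 or 5 were detected, and their sum was 7734 and 14321 in Sox17_dox, 8840 and 12213 in Sox17_untreated, 25716 in KH2_dox and 17407 in KH2_untreated. That sum is thus higher in KH2 than in the inducible lines, but not every marker was. The keratin genes Krt7, Krt8 and Krt18 read 9.24, 13.93 and 12.61 in KH2_dox. In Sox17_dox they read 7.11, 11.55 and 9.80 in line 1, and 8.02, 12.89 and 11.56 in line 2. Tfap2c read 11.59 in KH2_dox, against 11.81 and 11.69 in Sox17_dox. Eomes, Elf5 and Hand1 were detected on no array, and Cdx2 on 1. The part of this list in the comparison with KH2_dox was not tested.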

How the data were processed

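Per the labels' protocols, Trizol-extracted total RNA was amplified, biotinylated and hybridised to Illumina MouseRef-8 chips. Per the file headers, raw data comprise bead-averaged linear intensity and its standard error. Per the file headers, the count of beads and a detection p-value stand beside them. In another deposited table the intensity had been normalised by the authors in BeadStudio, per the submitters' processing notes, by a method not given in the sources used here.

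Raw signal was background-corrected with negative controls inferred from the detection p-values (normexp, offset 16), quantile-normalised and set on the log2 scale (neqc, limma 3.58.1, R 4.3.3). The fit took probes detected (p under 0.05) on 2 or more arrays. Where a gene had several, the brightest stood for it. Symbols are those of the platform annotation, updated by Entrez number: 23962 probes were matched, 16 were not, and 1719 had no symbol. Each comparison was a contrast of 4 group means in limma (lmFit, eBayes, two-sided, Benjamini-Hochberg over all 12373 probes), with 2 residual degrees of freedom, so the KH2 arrays were assumed to vary like the inducible lines. Arrays with the same number come from the same line per the labels, and the difference between line 2 and line 1 with doxycycline correlated with that without it (r = 0.509 over the tested probes). The gene set and lists were chosen with earlier results of these data known. Named were all members, of each list the 2 tested genes with the highest and the 1 with the lowest mean change, and the 5 genes most like the members. Marker lists were described by their detected genes and summed signal. The signal over background limits the precision, as does the number of arrays.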

Additional observations from a re-analysis of the deposited data

Results flagged for a closer look

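For 4 of the genes the inducible lines both read higher with doxycycline while KH2 read lower: Lamc1 (0.47 and 0.97 in line 1 and line 2, -0.093 in KH2), Nid1 (0.97 and 0.71, -0.11 in KH2), Nid2 (0.59 and 0.31, -0.13 in KH2) and Agrn (0.51 and 0.42, -0.019 in KH2). KH2 has 1 array per condition. On raw log2 signal the KH2 differences were -0.08 ± 0.08 for Lamc1, -0.11 ± 0.11 for Nid1 and -0.11 ± 0.11 for Nid2 (bead SE). These are of the size of the bead error. For Agrn the raw KH2 difference was 0.12 ± 0.07, which has the other sign. The share of all genes with this pattern was not counted, so it cannot be said whether these 4 genes stand out. The shares that follow are for other patterns. Of all 8605 genes, 29.3% were higher with doxycycline in both inducible lines, and 52% were higher in KH2. In the test of the difference of changes none of the 4 genes passed, with limma adjusted p of 0.996 for each. The sign in KH2 turned for Agrn in the authors' values (0.06) and with median scaling (0.11).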

How the results depend on the processing

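limma called 0 probes in each comparison under every alternative run except 1 probe (Gata6) in the first comparison with the line as a replicate block, a fit with 1 residual degree of freedom, against 0 without it. The block changed no other call in the first and the last comparison, in which it was run, and none for the genes described here. The median over the 8 genes in the first comparison, 0.62, was 0.48 without background correction and 0.50 with an offset of 50. Leaving out 1 array at a time, it ran from 0.41 (without untreated line 1) to 0.80 (without induced line 1), and that of the last comparison from 0.33 to 0.63, with the same arrays left out. Of the fits of single genes under alternatives, 322 kept their direction and 6 reversed sign, all of values that had not passed: Agrn in the comparison with KH2_dox with median scaling (-0.022), and with an array left out Lamb1 in the same comparison (-0.34 to 0.024) and, in the last, Lama1 (-0.023 to 2.05), Lamb1 (-0.16 to 0.50) and Lamb2 (-0.015 to 0.18). In the last comparison Lama1 and Lamb1 reversed without untreated line 1, which left induced line 1 without its own untreated array. For these genes untreated line 2 read 2.08 and 0.66 above untreated line 1. The cause of the reversals was not tested. The 322 include many fits whose estimate could not move. Other filters, trend and robust moderation, the block and the mean over probes leave the estimate as it was. So does leaving out an array that is not part of the comparison. The 322 are thus no measure of stability. The counts of genes higher in both lines (7 of 8) and of groups that do not overlap (5 and 4 of 8) moved under 2 settings only. They were 8, 6 and 4 of 8 in the authors' normalised values, against 31.2%, 16.3% and 9.32% of all genes. With median scaling they were 8, 6 and 3 of 8, against 31.6%, 17.7% and 8.62%. The filters leave the values of these genes as they were. Without background correction and with an offset of 50, the order of probes on each array is kept before quantile normalisation. These counts could thus not move under those settings. Each gene has 1 probe, so the mean over probes is the same value. Leaving out a KH2 array ends the last comparison, and without KH2_dox the comparison with it cannot be fitted.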
